A study of Mus musculus with 9 samples.

Results

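Heparan sulfate synthesis and editing was examined through 10 genes listed by their enzymatic function: the polymerases Ext1, Ext2 and Extl3, the N-deacetylase/N-sulfotransferases Ndst1 and Ndst2, the 2-O-sulfotransferase Hs2st1, the 6-O-sulfotransferases Hs6st1 and Hs6st2, and the 6-O-endosulfatases Sulf1 and Sulf2. They were 10 of 43539 genes in the expression table, and all 10 were among the 18714 genes with a mean of at least 0.5 FPKM (fragment counts scaled by transcript length and by the number of mapped fragments) that were tested. RNAseq was carried out on mouse tissue at E14.5, when bone formation in the skull roof begins. The 3 groups, with 3 libraries each, were cranial vault of MCAGF8 embryos, cranial vault of controls and cranial base of controls. Each library was made from pooled RNA of 3 tissue samples, so the spread between libraries is a spread between pools. MCAGF8 embryos carried Msx2-Cre and the CAGF8 allele, in which Cre releases expression of Fgf8b from a CAG promoter at the ROSA26 locus. Msx2-Cre acts in the surface ectoderm, and the skin was peeled off before the vault was collected. Both control groups were labelled wildtype and came from the same cross. By the methods every embryo of that cross inherited the conditional allele, so in controls it was present without Cre. The background was a mixed strain in all 3 groups, and vault and base were both dissected from control embryos, with no statement of which pools shared embryos.

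Heparan sulfate is a long sugar chain attached to core proteins at the cell surface and in the matrix. Ext1 and Ext2 together polymerise the chain, Extl3 starts it, Ndst enzymes replace acetyl groups by sulfate, and 2-O- and 6-O-sulfotransferases add further sulfates. Sulf1 and Sulf2 then remove 6-O-sulfates from the finished chain outside the cell. In the skeleton the chain is known for binding FGF, Wnt, hedgehog and BMP ligands and for acting as a co-receptor for FGFs, for which 6-O-sulfation is required, and loss of EXT1 or EXT2 causes hereditary cartilage outgrowths in humans.

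Sulf2 was the only member called below with all 9 libraries, in a single comparison, and Sulf1 is its paralogue. The stretch of coding sequence that defines them as sulfatases is shown to place both genes on the genome and to show how alike they are there. The first capital codon encodes the cysteine that SUMF1, the formylglycine-generating enzyme, converts to the catalytic residue, and the capitals mark the whole sulfatase signature. Both stretches were read from GENCODE M21 transcripts on GRCm38, 5′ to 3′ on the gene's own strand. The Sulf1 stretch lies in exon 5 at chr1:12796828-12796887 on the plus strand, and the Sulf2 stretch in exon 3 at chr2:166116990-166117049 on the minus strand. The sequences are as follows.
Sulf1: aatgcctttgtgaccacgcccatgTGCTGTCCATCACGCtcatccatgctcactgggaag
Sulf2: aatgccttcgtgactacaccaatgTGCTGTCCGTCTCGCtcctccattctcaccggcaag
The genes share 50 of these 60 bases. Across whole transcripts, however, the longest run of bases common to Sulf1 and Sulf2 was 20, and the longest for any pair of members was 23 (Ndst1 and Ndst2), against reads of 151 bases, so no full read could match both genes of a pair exactly. Of the members, Sulf2 shared 154 of 5871 exon bases with Ncoa3 on the opposite strand and Hs6st1 shared 447 of 5542 with the antisense gene Gm37335. The libraries were stranded, but the sources used here do not say whether strand was used in the quantification.

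The libraries did not all match their tissue labels equally well. The summed FPKM of 12 cartilage markers was 822, 9667 and 1430 in the cartilaginous base libraries 1 to 3, against 1973 to 2716 in the control vault and 2720 to 4957 in the MCAGF8 vault, so base library 2 stood apart and base libraries 1 and 3 lay below every vault library in this sum. The 4 hypertrophic cartilage markers, however, summed to 236, 767 and 204 in base libraries 1 to 3, above every vault library (83.8 to 164). Of these 4, 3 had a higher mean in the base than in the control vault and 1 a lower mean, and all 4 had a higher mean than in the MCAGF8 vault. No cartilage marker was at 0 in any library. Between the vaults, 11 of 12 cartilage markers had a higher mean in MCAGF8 with 0 called, 10 of 10 bone markers had a lower mean with 6 called, 12 of 12 skeletal muscle markers had a lower mean with 8 called, and 12 of 13 epidermal markers had a higher mean with 2 called. Summed muscle markers ran from 2143 to 12957 in the base, 61.3 to 311 in the MCAGF8 vault and 1153 to 7121 in the control vault, and summed epidermal markers from 136 to 895, 457 to 1085 and 35.1 to 124, so epidermal transcripts were detected in all libraries, although the skin was peeled off the vault. Each library is a bulk sample, in which fewer cells of a type and less RNA per cell cannot be told apart, and the part of these cell types in the values below was not tested. Read depth is unknown because FPKM keep no counts. Summed FPKM ran from 793249 to 1315981 per library.

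All 10 genes were expressed in every library. Averaged over the 9 libraries, the lowest member, Hs6st2, exceeded 55.7% of all tested genes and the highest, Sulf2, exceeded 96.9%. FPKM are scaled by transcript length, so levels can be set in an approximate order. Trends with gene length still differed between libraries, as given below, and the members' exon lengths ran from 4546 (Ndst2) to 11294 bases (Sulf1). Sulf2 was highest and Hs6st2 lowest by mean in all 3 groups. In the control vault the order was Sulf2, Ext2, Sulf1, Ext1, Ndst1, Extl3, Hs2st1, Hs6st1, Ndst2 and Hs6st2, and the libraries of neighbouring genes overlapped for Sulf1 and Ext1, for Hs2st1 and Hs6st1, and for Ndst2 and Hs6st2. In the MCAGF8 vault the order was Sulf2, Sulf1, Ext2, Ext1, Ndst1, Extl3, Ndst2, Hs2st1, Hs6st1 and Hs6st2. There Sulf1 and Ext2 overlapped, as did each pair of neighbours from Ndst1 to Hs6st1. In the base the order was Sulf2, Sulf1, Ext2, Ext1, Ndst1, Hs6st1, Extl3, Hs2st1, Ndst2 and Hs6st2, with overlap between Sulf1 and Ext2 and between neighbours from Ext1 to Hs2st1. The position of Sulf1 thus differed: in the control vault every library had more Ext2 than any had Sulf1, whereas the ranges of these genes overlapped in the other groups. The dot plot of the 10 genes shows these levels library by library.

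**Figure D1:**
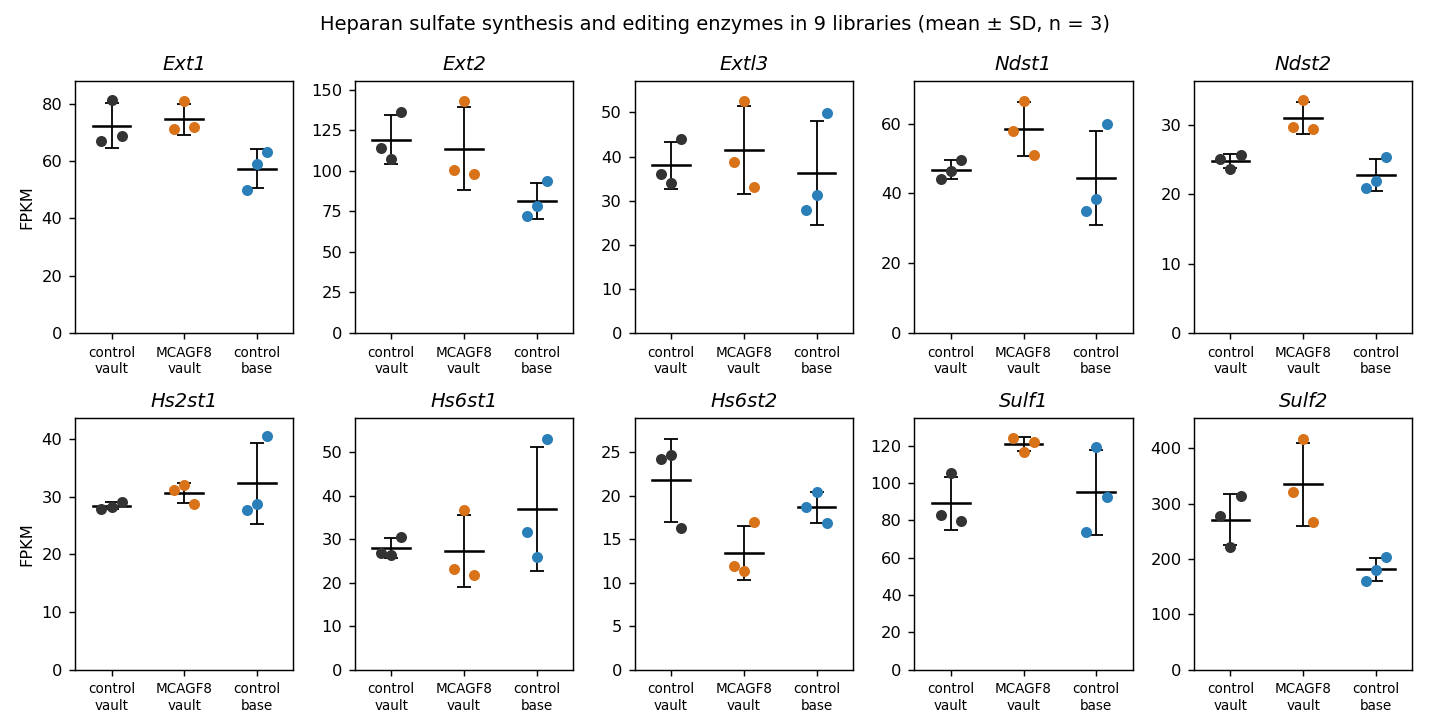
FPKM (y-axis, linear, from 0) of the 10 heparan sulfate genes in control vault, MCAGF8 vault and control base libraries, with points for single libraries and bars for mean ± SD (n = 3). The MCAGF8 points lie above both other groups for Ndst2 only, while for Sulf2, Ext1 and Ext2 the base points lie below all vault points.

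Ext1, a catalytic subunit of the chain polymerase (GRCm38, chromosome 15, 53064038 to 53346159, minus strand), was at 71.1, 80.8 and 71.7 FPKM in the MCAGF8 vault, 67.0, 81.3 and 68.6 in the control vault, and 50.0, 58.8 and 63.3 in the base. All vault libraries were above all base libraries, and the vaults overlapped. Its partner Ext2 (chromosome 2, 93661028 to 93822568, minus strand) was at 101, 143 and 97.8 FPKM in the MCAGF8 vault, 114, 107 and 136 in the control vault, and 72.2, 78.2 and 93.5 in the base. Again the base was lower without overlap and the vaults were interleaved. Extl3 (chromosome 14, 65052060 to 65149855, minus strand), which adds the first N-acetylglucosamine of the chain, was at 38.9, 52.5 and 33.1 FPKM in the MCAGF8 vault, 34.0 to 44.0 in the control vault, and 27.8, 31.2 and 49.8 in the base. Its 3 groups overlapped throughout.

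Ndst1 (chromosome 18, 60684494 to 60748650, minus strand), the enzyme responsible for most N-sulfation in most tissues, was at 57.8, 66.3 and 51.1 FPKM in the MCAGF8 vault, 44.2, 46.5 and 49.7 in the control vault, and 34.9, 38.4 and 59.8 in the base. The MCAGF8 libraries were above the control vault libraries without overlap, while base library 3 fell within the MCAGF8 range. Ndst2 (chromosome 14, 20723730 to 20734562, minus strand), the isoform best known for heparin synthesis in mast cells, was at 29.8, 33.6 and 29.4 FPKM in the MCAGF8 vault, 25.1, 23.6 and 25.6 in the control vault, and 20.9, 22.0 and 25.3 in the base. Of the 10 members it was the one whose MCAGF8 libraries lay above all 6 others. The ratio of Ndst1 to Ndst2 stayed close, at 1.88 ± 0.130, 1.89 ± 0.113 and 1.92 ± 0.378 (SD, n = 3) in the MCAGF8 vault, control vault and base.

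Hs2st1 (chromosome 3, 144429706 to 144570181, minus strand), the sole 2-O-sulfotransferase, was at 31.2, 32.1 and 28.7 FPKM in the MCAGF8 vault, 27.9, 28.3 and 29.1 in the control vault, and 27.7, 28.8 and 40.5 in the base. It had the narrowest range of group means of the 10, 0.16 on the log2 scale, and the groups overlapped.

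Hs6st1 (chromosome 1, 36068400 to 36106446, plus strand), the broadly expressed 6-O-sulfotransferase, was at 23.2, 36.7 and 21.8 FPKM in the MCAGF8 vault, 27.0, 26.3 and 30.6 in the control vault, and 31.7, 25.9 and 53.0 in the base. MCAGF8 library 2 and base library 3 were high within their groups, and all groups overlapped. Hs6st2 (chromosome X, 51387212 to 51681856, minus strand), a second 6-O-sulfotransferase, was at 11.9, 11.4 and 16.9 FPKM in the MCAGF8 vault, 24.3, 24.7 and 16.3 in the control vault, and 18.7, 20.4 and 16.9 in the base. The vaults thus met at single libraries: MCAGF8 library 3 was slightly above control vault library 3, and the other MCAGF8 libraries were below everything else. The gene had means of 13.4 ± 3.08 FPKM in the MCAGF8 vault and 21.7 ± 4.74 in the control vault.

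Sulf1 (chromosome 1, 12692277 to 12861192, plus strand) was at 124, 117 and 122 FPKM in the MCAGF8 vault, 82.6, 105 and 79.4 in the control vault, and 73.7, 119 and 92.4 in the base. The MCAGF8 libraries were closely grouped, at 121 ± 3.70 FPKM, and did not overlap with the control vault at 89.0 ± 14.1. Base library 2 fell among them. The study reports Sulf1 as dysregulated in the MCAGF8 vault from these same libraries, so its difference between the vaults is not independent evidence. Sulf2 (chromosome 2, 166073089 to 166155663, minus strand) was at 320, 417 and 267 FPKM in the MCAGF8 vault, 277, 222 and 314 in the control vault, and 161, 179 and 203 in the base. Every vault library was above every base library, and the vaults overlapped. Sulf2 exceeded Sulf1 in all 9 libraries, by 2.78 ± 0.708 times in the MCAGF8 vault, 3.14 ± 0.940 in the control vault and 1.96 ± 0.394 in the base (SD, n = 3).

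The comparison of MCAGF8 with control vault asked which of these enzymes differed in vault tissue when the surface ectoderm was made to produce FGF8. Summed epidermal markers were also higher in every MCAGF8 vault library than in every control vault library, and their part in the differences was not tested. None of the 10 passed the thresholds of p under 0.05 and adjusted p under 0.1 in limma, a linear model fitted to log2(FPKM + 1) over all tested genes, with 0.604% of all genes called. At an unadjusted p under 0.05 there was 1 member, Hs6st2, where 6.34% of all genes, and 3.48% in the lower direction, met that level. Hs6st2 had a log2 difference of -0.66 (SE 0.23, 95% interval -1.17 to -0.15, limma adjusted p = 0.505). For Sulf1 the log2 difference was 0.45 (SE 0.20, interval -0.01 to 0.91, limma adjusted p = 0.804), and the mean was 1.36 times that of the control vault. Ndst1 and Ndst2 each had a log2 difference of 0.31, with intervals of -0.18 to 0.79 and -0.04 to 0.66. For Sulf2 the difference was 0.29 (interval -0.21 to 0.80). The remaining differences were between -0.08 (Ext2) and 0.11 (Extl3), and those of Ext2 and Hs6st1 turned positive when libraries were rescaled to a common sum. The widest interval, that of Hs6st1, ran from -0.71 to 0.57, so it held differences of either sign. The size of difference that 3 pools per group can detect was not tested.

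Libraries of 3 members, Sulf1, Ndst1 and Ndst2, did not overlap between the vaults, each higher in MCAGF8, while 19.2% of all genes did not overlap and 9.90% were higher without overlap. The median log2 difference of the 10 members was 0.11, against -0.01 over all tested genes, and 7 of 10 were above 0, against 48.5% of all genes. Rescaling each library to the same sum moved the median of all genes by over 0.1, from -0.01 to 0.13, and that of the members to 0.27.

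The MCAGF8 vault was compared with the control base because the study took the base as its baseline for hyaline cartilage. These groups differ in both genotype and tissue site, which cannot be told apart in this comparison. Sulf2 was called, with 334.7 ± 75.6 FPKM in the MCAGF8 vault and 181 ± 20.9 in the base. It was 1.85 times higher, with a log2 difference of 0.87 (SE 0.23, interval 0.36 to 1.37, limma adjusted p = 0.0621), in a comparison where 8.39% of all genes were called and 2.98% were called higher. Without base library 2, the library with the high cartilage markers, 4580 of all tested genes were called, 1189 of them higher. The Sulf2 call was kept there (limma adjusted p = 0.0441). It was lost without base library 1, MCAGF8 library 1, MCAGF8 library 2 or control vault library 1, at limma adjusted p of 0.131, 0.191, 0.181 and 0.106, with log2 differences of 0.78, 0.89, 0.70 and 0.87. It was also lost when only the 6 libraries compared were fitted (limma adjusted p = 0.153) with the replicate number as a block (0.172), without variance moderation (0.112) and at a threshold of adjusted p under 0.05.

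A further 3 members reached an unadjusted p under 0.05 without passing the adjusted threshold, making 4 of 10 where 19.6% of all genes, and 6.83% in the higher direction, did so. Ndst2 had a log2 difference of 0.43 (SE 0.16, limma adjusted p = 0.168), Ext2 of 0.47 (SE 0.20, adjusted p = 0.243) and Ext1 of 0.38 (SE 0.16, adjusted p = 0.244). The same 4 genes were those without overlap, all higher in the MCAGF8 vault, against 21.9% of all genes without overlap and 8.91% higher without overlap. Ndst1 and Sulf1 had differences of 0.42 and 0.37, with intervals of -0.06 to 0.91 and -0.09 to 0.83. Sulf1 passed the thresholds when base library 2 was left out (log2 difference 0.55, limma adjusted p = 0.0726), and Ndst1 when base library 3 was left out (0.65, adjusted p = 0.0897). Of all tested genes, 4580 and 1203 were called in these settings, with 1189 and 526 of them higher. Both 6-O-sulfotransferases had lower means in the MCAGF8 vault, with log2 differences of -0.47 (interval -0.98 to 0.04) for Hs6st2 and -0.40 (interval -1.03 to 0.24) for Hs6st1. Hs2st1 was at -0.05, which turned positive after rescaling to a common sum, and Extl3 at 0.21. Of the members 7 of 10 had a log2 difference above 0, against 43.6% of all genes. Their median was 0.37, against -0.07 over all genes, and became 0.58 against 0.11 after rescaling. In this comparison 4 of 4 hypertrophic cartilage markers had a lower mean in the MCAGF8 vault with 3 called, 11 of 12 muscle markers with 11 called, 9 of 9 markers of brain neurons and progenitors with 4 called and 8 of 10 bone markers with 5 called. All 6 endothelial markers had a higher mean, with 3 called, and the part of these cell types in the Sulf2 difference was not tested.

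**Figure D2:**
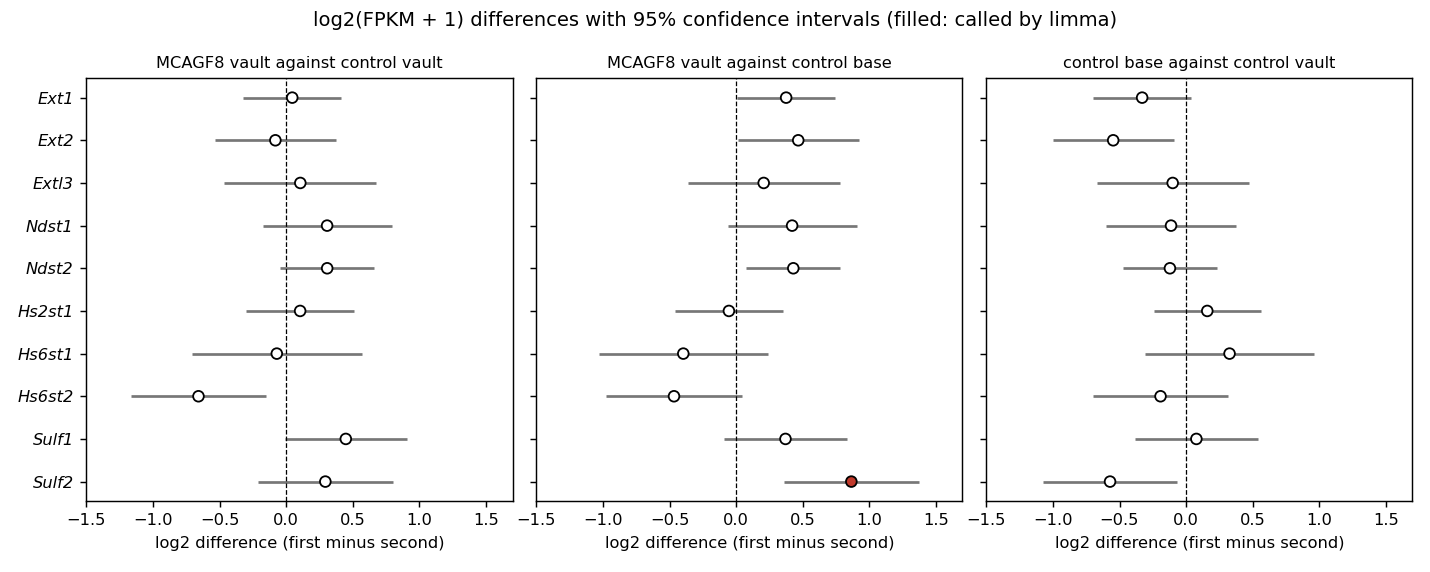
Differences in log2(FPKM + 1) (x-axis, first group minus second) of the 10 genes in the 3 comparisons, with lines for 95% confidence intervals and a filled point where limma called the gene. Sulf2 in MCAGF8 vault against control base, at 0.87, is the single filled point, and the Hs6st2 interval between the vaults lies wholly below 0.

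Control base and control vault were compared to show how the enzymes differ between sites in control embryos. None of the 10 members was called by limma, with 3.06% of all genes called, and 2 members reached an unadjusted p under 0.05, both lower in the base, as did 12.8% of all genes and 4.71% in the lower direction. These were Ext2, with a log2 difference of -0.55 in the base (SE 0.20, limma adjusted p = 0.264), and Sulf2, with -0.57 (SE 0.23, limma adjusted p = 0.304). Both, and Ext1 with -0.33 (interval -0.70 to 0.04), were lower in the base without overlap, against 15.5% of all genes without overlap and 6.69% lower. Hs6st1 had a difference of 0.33 with an interval of -0.31 to 0.96. The other 6 members lay between -0.19 (Hs6st2) and 0.16 (Hs2st1). Of the members 3 of 10 had a log2 difference above 0, against 58.8% of all genes, and their median was -0.12, against 0.07 over all genes. This comparison shares the base libraries with the one above and the control vault libraries with the comparison of the vaults, so the values of Sulf2, Ext1 and Ext2 are not separate evidence of a low base.

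Levels were also summed by enzyme class. The polymerases Ext1, Ext2 and Extl3 summed to 229.8 ± 40.5 FPKM in the MCAGF8 vault, 229.5 ± 16.8 in the control vault and 175 ± 28.9 in the base. Ndst1 and Ndst2 summed to 89.4 ± 9.84, 71.6 ± 3.26 and 67.1 ± 15.7. The 6-O-sulfotransferases summed to 40.6 ± 6.69, 49.7 ± 2.44 and 55.5 ± 12.6, and the endosulfatases to 456 ± 72.7, 360 ± 33.0 and 276 ± 35.8 (SD, n = 3 throughout). The endosulfatases made up 53.8 ± 1.16% of the members' summed FPKM in the MCAGF8 vault, 48.7 ± 1.60% in the control vault and 45.7 ± 3.63% in the base.

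The genes whose products remove 6-O-sulfate and those whose products add it can be set against each other within a library, which cancels a scale factor common to that library. Trends with gene length do not cancel. The slope of log2 levels on log2 exon length, relative to the mean of all libraries, ran from -0.21 in base library 1 to 0.096 in base library 2. The ratio of summed Sulf1 and Sulf2 to summed Hs6st1 and Hs6st2 was 12.7, 11.1 and 10.1 in the MCAGF8 vault, 7.02, 6.41 and 8.39 in the control vault, and 4.66, 6.44 and 4.22 in the base. The MCAGF8 vault was above both controls in every library, at 11.3 ± 1.31 against 7.27 ± 1.01 and 5.11 ± 1.17, and control vault and base overlapped. This ratio was chosen after the values of its 4 genes had been seen and is given without a test. It compares RNA levels and says nothing of enzyme activity or of the sulfation of the chain.

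**Figure D3:**
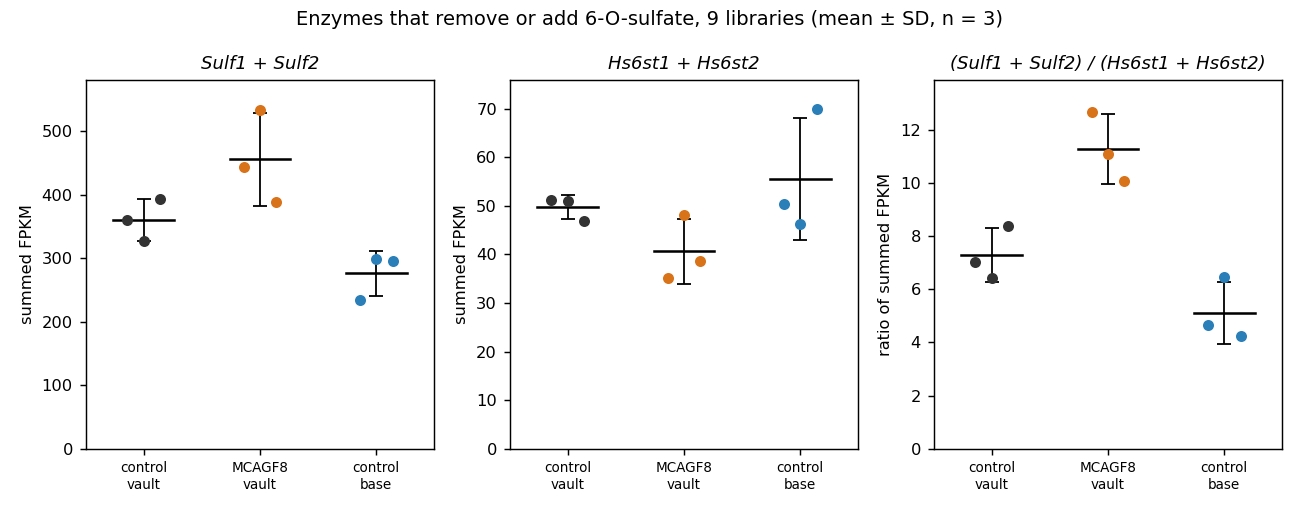
Summed FPKM of Sulf1 and Sulf2 (left), of Hs6st1 and Hs6st2 (middle) and the ratio of both sums (right) in each library, with points for libraries and bars for mean ± SD (n = 3). The ratio is 10.1 to 12.7 in the MCAGF8 vault, above the control vault at 6.41 to 8.39 and the base at 4.22 to 6.44, whereas the sums overlap between groups except for the endosulfatases of either vault against the base.

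Within the families the balance between paralogues was tested for 4 pairs in 3 comparisons. The ratios Sulf2 to Sulf1, Ext2 to Ext1, Ndst1 to Ndst2 and Hs6st1 to Hs6st2 overlapped between groups in all 12 cases. The lowest p of the exact two-sided permutation tests was 0.2, adjusted over the 12 tests to 0.9, where 3 libraries against 3 cannot go below 0.1. The ratio of Hs6st1 to Hs6st2 was 2.16 ± 0.990 in the MCAGF8 vault and 1.35 ± 0.458 in the control vault.

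Over the 9 libraries, the genes whose levels ran most like Sulf1 among 12933 genes with a mean of at least 5 FPKM were Ets1 (Pearson r = 0.96), Colgalt2 (0.95) and Osbpl7 (0.95). For Sulf2, the member with the widest range of group means (0.87 on the log2 scale), they were Cpxm1 (0.98), Carm1 (0.98) and Ctsf (0.98). Colgalt2 encodes a collagen galactosyltransferase and Cpxm1 a secreted carboxypeptidase-like protein. These correlations are descriptions over libraries of 3 groups that share their scaling, picked as the highest of many.

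The other genes of the pathway were taken from lists of 56 genes, of which 55 were tested and Gpc5, a glypican core protein, was too low. Between the vaults 0 of 55 were called by limma, with 0.604% of all genes called, and 2 reached an unadjusted p under 0.05, as did 6.34% of all genes. Hpse, the heparanase that cuts the chain, was at 4.28, 5.39 and 4.03 FPKM in the MCAGF8 vault and 11.6, 8.60 and 10.4 in the control vault (log2 difference -1.01, SE 0.34, limma adjusted p = 0.470). Agrn, the heparan sulfate proteoglycan agrin, was at 151, 160 and 167 FPKM against 113, 87.8 and 90.7 (0.72, SE 0.25, limma adjusted p = 0.497). Neither gene overlapped between the vaults. Lists for the linker that joins chain to core protein, precursor supply and sulfatase activation had medians of 0.00, -0.05 and -0.11, and the 12 tested core proteins a median of 0.20.

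Against the base, 7 of the 55 were called, 6 of them higher in the MCAGF8 vault, with 8.39% of all genes called. The 3-O-sulfotransferases, which add the rarest sulfate and create binding sites such as that for antithrombin, split by gene. Hs3st1 was at 25.1, 28.3 and 22.5 FPKM in the MCAGF8 vault and 8.42, 13.2 and 14.4 in the base (log2 difference 1.04, SE 0.22, limma adjusted p = 0.0287). Hs3st3b1 was at 10.3 to 11.2 FPKM against 4.03 to 7.46 (log2 difference 0.82, SE 0.23, limma adjusted p = 0.0750), and Hs3st3a1, at 4.61 against 2.96 in the mean, missed the adjusted threshold (0.51, adjusted p = 0.221). The low-level Hs3st4, at 0.333 against 1.64 FPKM (-0.89, adjusted p = 0.139), and Hs3st2, at 0.142 against 2.11 (-1.11, adjusted p = 0.245), had higher means in the base. Hs3st2 was carried by base library 3 at 5.25 FPKM, and Hs3st4 was also highest there, at 3.05. The 9 markers of brain neurons and progenitors that had values, of 10 listed, summed to 1013 in that library, against 482 and 309 in base libraries 1 and 2. Of the 1013, Stmn2 gave 470 and Gap43 414, whereas Neurod1, Neurod6 and Pax6 were at 2.14, 1.00 and 1.14 FPKM, so the sum rested mainly on Stmn2 and Gap43. The part of neural cells in the values of Hs3st2 and Hs3st4 was not tested. Ndst4, a relative of Ndst1 and Ndst2, was called lower at 0.130 against 1.17 FPKM (-0.91, SE 0.23, limma adjusted p = 0.0546). Its mean was 0.507 FPKM over the 9 libraries and 0.221 in the control vault, so it passed the filter of 0.5 FPKM only through the base. The same held for Hs3st2, at 0.00941 FPKM in the control vault. The Ndst4 call, 1 of the 7, and the Hs3st2 difference are therefore no evidence of a higher base.

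Among core proteins Sdc2, the transmembrane proteoglycan syndecan 2, was at 124, 134 and 124 FPKM in the MCAGF8 vault, 103, 108 and 104 in the control vault, and 72.9, 75.1 and 73.5 in the base. The 3 groups stood apart with little spread within each, and the difference from the base was called (log2 difference 0.77, SE 0.14, limma adjusted p = 0.0150). Sdc2 kept its call under each of 19 other processing settings tried. Sdc1, syndecan 1, had means of 221 and 131 FPKM (0.78, SE 0.27, limma adjusted p = 0.141).

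Breakdown of the chain was the list with the highest median against the base. All 10 of its genes had log2 differences above 0, as did 43.6% of all genes, with a median of 0.66 against -0.07 over all genes, and 9 of 10 did without base library 2. Of all genes 2.98% were called higher, and of these 10 there were 3 called: Hpse2, a heparanase relative without known cutting activity, at 4.13 against 0.651 FPKM (log2 difference 1.54, limma adjusted p = 0.0403), Naglu at 21.8 against 12.0 (0.82, adjusted p = 0.0407) and Hgsnat at 34.0 against 20.9 (0.68, adjusted p = 0.0855). Naglu and Hgsnat are lysosomal enzymes whose loss causes Sanfilippo syndrome, in which heparan sulfate accumulates. Sgsh and Arsg, lysosomal sulfatases of the same route, had differences of 0.73 and 0.74 with limma adjusted p of 0.110 and 0.127. The Hgsnat call was lost in 10 of 19 other settings and the Hs3st3b1 call in 13 of 19. These settings leave out changes of threshold, and at an adjusted p under 0.05 the calls of Hgsnat, Hs3st3b1 and Ndst4 were lost as well. Each of the calls against the base other than that of Sdc2 was lost without MCAGF8 library 1 and without MCAGF8 library 2. All 6 macrophage markers had higher means in the MCAGF8 vault than in the base, with 4 called, and their summed FPKM were 92.2 to 198 in the base and 197 to 299 in the MCAGF8 vault. The part of macrophages in the lysosomal genes was not tested.

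**Figure D4:**
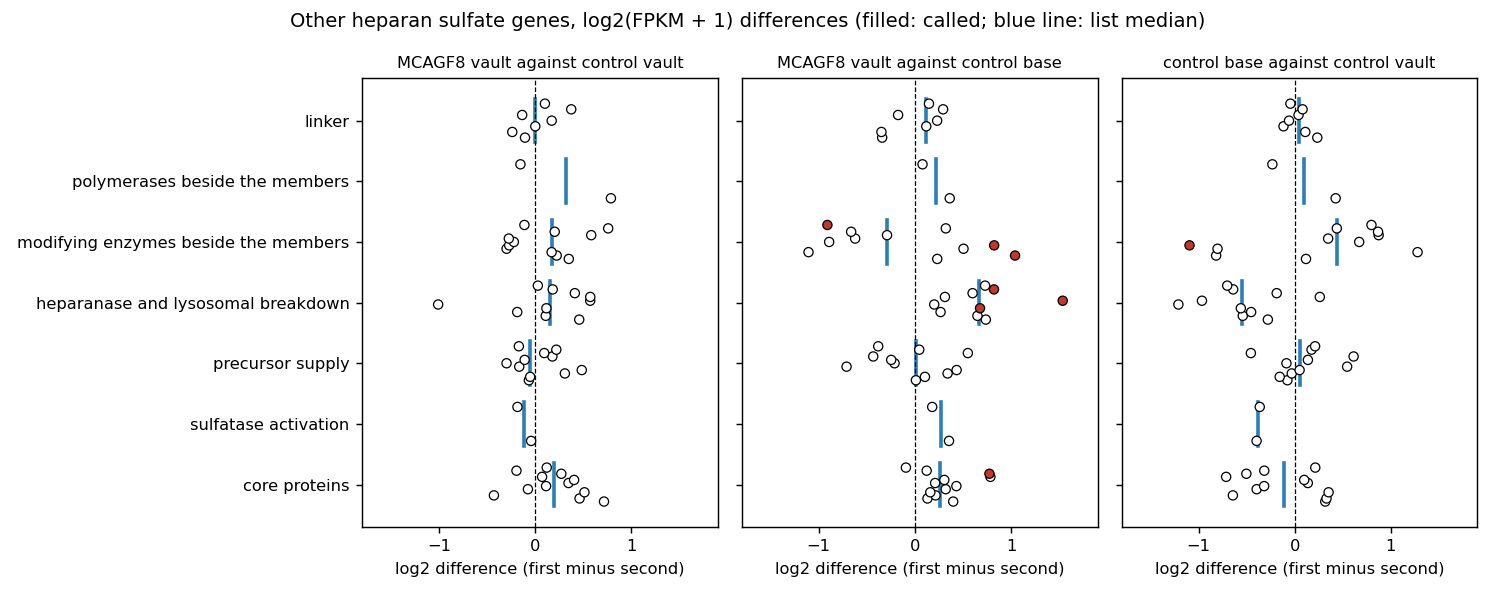
Differences in log2(FPKM + 1) (x-axis, first group minus second) of 55 other heparan sulfate genes, by list and comparison, with filled points for genes called by limma and a blue line at each list median. In the MCAGF8 vault against the base all 10 breakdown genes lie above 0 with a median of 0.66, and against the control vault no gene is filled.

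Between control base and control vault 1 of the 55 was called, with 3.06% of all genes called. This was Hs3st3b1, at 4.03 to 7.46 FPKM in the base and 13.1, 12.0 and 14.8 in the control vault (log2 difference -1.09, SE 0.23, limma adjusted p = 0.0537). The call was lost in 8 of 19 other settings, among them rescaling, the fit of only the 6 libraries compared, the replicate block and each control vault library left out, with limma adjusted p of up to 0.219. Changes of threshold are not among these settings, and the call was also lost at an adjusted p under 0.05. Of the breakdown genes 9 of 10 had log2 differences below 0 in the base, where 58.8% of all genes were above 0. Their median was -0.55, and 7 reached an unadjusted p under 0.05, as did 12.8% of all genes and 4.71% in the lower direction. Among these were Hpse (-1.21), Hpse2 (-0.96), Sgsh (-0.70), Naglu (-0.64), Hgsnat (-0.56) and Gusb (-0.45), with limma adjusted p from 0.127 to 0.388. All 6 macrophage markers had lower means in the base here, with 3 called. Sumf1, which activates the sulfatases including Sulf1 and Sulf2, was at 26.1, 25.2 and 28.4 FPKM in the base, 33.3, 36.2 and 36.2 in the control vault, and 34.3, 37.6 and 30.9 in the MCAGF8 vault. Its base libraries were lower than all vault libraries, with log2 differences of -0.40 from the control vault (limma adjusted p = 0.291) and of 0.35 for the MCAGF8 vault over the base (adjusted p = 0.241). Of the remaining genes named by rule, Slc35d2, a Golgi nucleotide-sugar transporter, had means of 4.33, 6.33 and 6.79 FPKM in base, control vault and MCAGF8 vault. Against the control vault Hs3st1, Hs3st3a1, Hs3st6, Hs3st2, Ndst4, Sdc1 and Sdc2 also reached an unadjusted p under 0.05 without overlap in the base, with log2 differences of -0.82, -0.80, 0.87, 1.28, 0.80, -0.71 and -0.50 and limma adjusted p of 0.119, 0.105, 0.211, 0.274, 0.141, 0.268 and 0.127. Of these, Hs3st2 and Ndst4 passed the filter on low values only through the base, so their differences are no evidence of a higher base.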

How the data were processed

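RNA was sequenced by the authors as stranded single-end reads of 151 bases, mapped with gSNAP and quantified with Cufflinks into FPKM per gene, which is the deposited unit. Tool versions and the genome build are not stated in the labels or methods. Members and lists were chosen with earlier results of these data known. Values of 63 repeated identifiers were summed, and 9 genes holding the placeholder 999999999 were left out, none of them a member. Genes with a mean of at least 0.5 FPKM entered limma 3.58.1 (R 4.3.3) as log2(FPKM + 1), with all 9 libraries, 1 mean per group, a variance trend and no block. The study used ANOVA in R, with no further detail of its design. The pseudocount understates the fold change of low genes. A gene was called at p under 0.05 and Benjamini-Hochberg adjusted p under 0.1 over all tested genes, all tests being two-sided. The procedure was tested on simulated data. Symbols and GRCm38 coordinates came from GENCODE M21, matched by Ensembl identifier for 42384 of 43548 genes. Read depth is unknown, so no counting error is given. All members are named. Genes of the wider lists are named if called, or if at an unadjusted p under 0.05 without overlap and with a mean of at least 1 FPKM in the higher group, and 1 gene meeting this rule is not reported here. Alternatives covered scaling, pseudocount, filter, thresholds, libraries fitted, moderation, length and GC trends, and each library left out.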

Additional observations from a re-analysis of the deposited data

How the results depend on the processing

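The members' results were recomputed under 21 alternatives each. The 1 called difference, Sulf2 against the base, kept its direction and ranged from 0.67 to 1.08 with limma adjusted p from 0.0237 to 0.191. Depth limits the low genes to an unknown extent, and 3 pools per group limit all. Rescaling to a common sum moved the median of all genes from -0.01 to 0.13 between the vaults and from -0.07 to 0.11 against the base. The split of all called genes into higher and lower was 558 and 1013 against the base, 776 and 829 after rescaling, and 1153 and 810 after quantile normalization. For base against control vault it was 347 and 226, and 236 and 390 after quantile normalization. The causes of the changes below were not tested.

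Calls over all genes were 113 between the vaults, 1571 for the MCAGF8 vault against the base and 573 for base against control vault. They became 35, 941 and 255 at an adjusted p under 0.05, 1186, 3675 and 2396 at an unadjusted p under 0.05, 0, 869 and 257 without variance moderation, 174, 875 and 108 with only the 6 libraries compared, and 71, 834 and 291 with a mean of at least 5 FPKM. Between the vaults they became 191 with a pseudocount of 0.1 and 66 without a filter, and with length and GC trends removed they became 2415 against the base and 1180 for base against control vault. Leaving out 1 library gave 11 to 231, 559 to 4580 and 132 to 1322. The highest of each came without base library 2, and the lowest without control vault library 1 or 3, without MCAGF8 library 1, and without control vault library 3. Other libraries moved the count by over 1.5 times as well: between the vaults MCAGF8 libraries 1, 2 and 3 (13, 14 and 14), against the base MCAGF8 libraries 2 and 3 (766 and 831), and for base against control vault base library 1 (934), MCAGF8 libraries 1 and 3 (279 and 322) and control vault libraries 1 and 2 (190 and 211).

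Member calls, 0 between the vaults, 1 against the base and 0 for base against control vault, became 1, 4 and 2 at an unadjusted p under 0.05. Against the base they became 0 at an adjusted p under 0.05 and with only the 6 libraries compared, 2 with length and GC trends removed (Hs6st2 added), and 3 after quantile normalization (Ext2 and Ndst2 added). Leaving out 1 library gave 0 to 2, with 0 without base library 1, MCAGF8 library 1 or 2, or control vault library 1, and 2 without base library 2 or 3. Calls in the wider lists were 0, 7 and 1. Between the vaults they became 2 at an unadjusted p under 0.05. Against the base they became 16 at an unadjusted and 4 at an adjusted p under 0.05, 13 with length and GC trends removed, 12 after quantile normalization and 3 with only the 6 libraries compared, and 1 to 21 with 1 library left out (1 without MCAGF8 library 1 or 2, 21 without base library 2). For base against control vault they became 19 and 0 at those p, 6 with length and GC trends removed, 4 without a filter, 3 without moderation, 2 with a pseudocount of 0.1, 7 after quantile normalization, 0 with only the 6 libraries compared, and 0 to 5 with 1 library left out (5 without base library 2).

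Whether the replicate numbers pair the libraries is not stated. Deviations from group means had correlations of -0.55 to 0.37 between same-numbered libraries of different groups and of -0.48 to 0.56 between differently numbered ones. With 3 libraries per group these values cannot decide it, and the libraries were treated as unpaired. With the replicate number as a block the calls over all genes became 19, 918 and 234, those among members 0 in each comparison, and those in the wider lists 3 against the base and 0 for base against control vault.

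Differences near 0 turned sign. Between the vaults Ext1 was at -0.017 with length and GC trends removed and -0.013 to 0.13 with 1 library left out, below 0 without MCAGF8 library 2 and, at -0.0054, without control vault library 1. Ext2 was at 0.0081 after quantile normalization, 0.090 after rescaling and -0.26 to 0.018 with 1 library left out, above 0 without MCAGF8 library 3 (0.016) or control vault library 3. Extl3 was at -0.019 with trends removed and -0.073 to 0.25 with 1 library left out, below 0 without MCAGF8 library 2. Hs6st1 was at 0.096 after rescaling and -0.30 to 0.066 with 1 library left out, above 0 without MCAGF8 library 1 (0.022) or 3. Against the base Hs2st1 was at 0.15 after rescaling and -0.15 to 0.11 with 1 library left out, above 0 without base library 3. For base against control vault the values with 1 library left out were -0.097 to 0.25 for Sulf1 (below 0 without base library 2), -0.35 to 0.062 for Extl3 (above 0 without base library 1 and, at 0.0074, without control vault library 3), -0.34 to 0.036 for Ndst1 (above 0 without base library 1) and -0.0089 to 0.26 for Hs2st1 (below 0 without base library 3).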

Other observations

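Genes of sulfate supply differed widely between the base libraries. Papss2, which makes the universal sulfate donor, was at 19.4, 125 and 27.8 FPKM in the 3 base libraries, against 40.5 to 43.2 in the control vault and 38.6 to 66.8 in the MCAGF8 vault. Slc26a2, the sulfate importer whose loss causes a group of human chondrodysplasias, was at 5.07, 41.3 and 6.63 FPKM in the base, and Slc35d1, a nucleotide-sugar transporter needed for cartilage proteoglycan synthesis, at 12.7, 54.8 and 16.3. Xylt1, which starts the linker of both heparan and chondroitin sulfate, was at 2.38, 21.6 and 6.41 FPKM. For each of these 4 genes base library 2 was the highest of all 9 libraries, and it was also the library with the highest summed cartilage markers. None of the 10 heparan sulfate enzymes other than Sulf1 and Hs6st2 had its highest base level in that library. The genes were chosen after their values had been seen, and none was called in any comparison with all 9 libraries. Without base library 2, 4580 of all tested genes were called in the MCAGF8 vault against the base, 1189 of them higher. With all 9 libraries these counts were 1571 and 558. Papss2, Slc26a2 and Xylt1 were called higher in the MCAGF8 vault without base library 2, with log2 differences of 1.13, 1.31 and 1.02 (limma adjusted p = 0.0207, 0.0400 and 0.0967). The library left out was the one in which these genes were highest, so its removal lowers their base mean by construction. These calls are therefore no evidence of a difference. The part of cartilage content in these values was not tested.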
